A study of Homo sapiens with 48 samples.

Results

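MDM2, MDM4 and 7 genes that p53 can switch on (GADD45A, SESN1, SESN2, RRM2B, TP53INP1, TP53I3 and ZMAT3) were followed in human lung fibroblasts in which oncogenic RAS was switched on and a splicing factor was then depleted. The genes were taken by symbol, 9 of the 19509 entries of the gene table that had counts, and all 9 were among the 9991 genes abundant enough to be tested. Their cassette exons and introns were taken from the matching splicing table, which lists 145 such events in these genes. All cells were IMR90 ER:RAS, a fibroblast line carrying HRAS G12V fused to the oestrogen receptor, so that 4-hydroxytamoxifen (4OHT) activates RAS, while DMSO is the solvent control. The controls therefore carried the fusion too, and since 1 cell line was used, the arms differ in treatment and siRNA and not in donor.

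Cells received DMSO or 4OHT for 6 days, were transfected, and were kept for 2 further days in medium with 0.5% serum. Each treatment was combined with 2 non-targeting siRNAs (siNT1, siNT2), 2 siRNAs against SF3B1 (13 and 16) or 2 against RBM39 (06 and 08), with 4 libraries of poly(A) RNA for each, which gives 48 libraries in 6 arms of 8. SF3B1 is a core protein of the U2 snRNP, which recognises the branch point ahead of the 3′ splice site, and RBM39 is an RNA-binding splicing factor. The sample titles and the treatment labels disagree on which non-targeting siRNA 4 of the 4OHT libraries received, and the titles were followed. Both siRNAs are pooled in the siNT arm, so this touches only what keeps siNT1 and siNT2 apart: the values and fits for each alone, the fit with 1 group per siRNA, the correlations over treatment and siRNA groups, and the symbols of the plot of levels.

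The p53 protein is a transcription factor that is kept low in unstressed cells by MDM2, an E3 ubiquitin ligase that marks it for degradation, and by MDM4, a relative of MDM2 that binds p53 and blocks its activity. p53 in turn activates MDM2, which closes a negative feedback loop, together with genes that arrest the cell cycle, repair DNA, restrain growth signalling or promote cell death. In fibroblasts sustained RAS signalling is a classic trigger of p53-dependent senescence. MDM2 and MDM4 are also known for alternative splicing, since skipping of internal exons removes or disrupts the parts of these proteins that bind p53.

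Library totals ran from 31467221 to 52734636 counts with a median of 39656598. The targeted factors were low in every library meant to lack them. SF3B1 fell from a mean of 359 to 32.8 CPM (counts scaled to library size by the TMM method) in DMSO and from 328 to 27.3 CPM in 4OHT. RBM39 fell from 170.3 to 27.4 CPM and from 120.2 to 16.3 CPM. Fibroblast markers summed to arm means of 4006 to 11818 cRPKM (read counts corrected for mappable length and library size) with VIM never below 2174 in a library. Epithelial markers summed to arm means of 1.29 to 3.22 cRPKM, endothelial markers to 0.108 to 0.628 and leukocyte markers to 0.061 to 0.156. The highest single libraries reached sums of 14.7, 0.9 and 0.22 cRPKM. The epithelial marker KRT5, with arm means of at most 2.63 cRPKM, stood at 13 in its highest library. The fibroblast collagens, DCN, PDGFRB and LUM differed widely between arms. Arm means ran from 18.8 to 727 cRPKM for DCN, 250 to 2637 for COL1A2 and 109 to 1079 for COL3A1. The part of such a shift in the results below was not tested. A single library, 4OHT siRBM39-08 replicate 4, stood apart for several of the genes, and the siRBM39 changes in 4OHT are given with and without it. In bulk RNA, fewer cells that express a gene and less of its RNA per cell cannot be told apart.

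The exons on which the splicing results turn are shown first by the 3′ splice sites they begin with, which lie just downstream of the branch point. Each window holds the last 25 bases of the intron in lower case and the first 5 bases of the exon in capitals, 5′ to 3′ on the coding strand, in GRCh37. Exons are numbered along the canonical transcripts of the GENCODE annotation, in which MDM2 and MDM4 have 11 exons each and GADD45A has 4.
MDM2 exon 3, chr12:69207309-69207338, plus strand: aatagcagttcttttctctttatagGTTAG
MDM2 exon 4, chr12:69210567-69210596, plus strand: ctcagaaatcatatttgtatttcagGTTCT
MDM2 exon 6, chr12:69218118-69218147, plus strand: tctgatcctttttcttttctctcagAATCA
MDM2 exon 7, chr12:69218310-69218339, plus strand: ttttatttttttcctaaatgcttagGACCT
MDM2 exon 8, chr12:69222526-69222555, plus strand: ttattttttttccttacatatccagAAGAA
MDM2 exon 9, chr12:69229584-69229613, plus strand: gttatatatttttttcttgttttagGATCT
MDM2 exon 10, chr12:69230427-69230456, plus strand: gatgctaatgaatgtgttttattagGTATA
ZMAT3 alternative exon, chr3:178789231-178789260, minus strand: ctatttatcagtttgcttgtttcagGCATT

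MDM4 exon 6 and GADD45A exon 2 are printed whole, with the exon in capitals, 25 bases of the intron ahead of it and 6 bases of the intron behind it, because the largest share of skipped reads in MDM4 and the only called exon of GADD45A lie there.
MDM4 exon 6, chr1:204506533-204506631, plus strand: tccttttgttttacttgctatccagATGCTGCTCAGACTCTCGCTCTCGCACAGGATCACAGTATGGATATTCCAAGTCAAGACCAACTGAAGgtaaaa
GADD45A exon 2, chr1:68151683-68151815, plus strand: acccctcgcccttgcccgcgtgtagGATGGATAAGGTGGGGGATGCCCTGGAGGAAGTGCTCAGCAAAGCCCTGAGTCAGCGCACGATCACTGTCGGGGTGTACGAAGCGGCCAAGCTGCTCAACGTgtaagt

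Of the 20 bases ahead of the terminal AG, 55% were pyrimidines at MDM2 exons 4 and 10, 75% at exons 3 and 7, 80% at exon 9, 85% at exon 8 and 90% at exon 6. The share was 80% at MDM4 exon 6 and 75% at GADD45A exon 2 and at the ZMAT3 exon. All bases of the named MDM2, MDM4 and GADD45A exons are coding in the canonical transcripts. The 75, 156 and 78 bases of MDM2 exons 3, 9 and 10 and the 102 bases of GADD45A exon 2 are multiples of 3, so that skipping them keeps the reading frame. Lengths of 134, 68, 97 and 161 bases (MDM2 exons 4, 6, 7 and 8) and of 68 bases (MDM4 exon 6) are not, so that skipping any of them alone shifts the frame. The ZMAT3 exon, 121 bases, is absent from the canonical transcript, and whether it holds coding bases in another transcript was not determined.

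RAS activation moved every gene of the group. In the siNT arms 8 of the 9 genes fell with 4OHT and 1, RRM2B, rose, in edgeR's quasi-likelihood test with Benjamini-Hochberg adjustment over all 9991 genes. The share of all tested genes that passed the same test was 78.1%, and 39.1% passed as lower. Their median log2 fold change was -0.47, beside -0.0019 over all tested genes. For each of the 9 genes the 8 DMSO and the 8 4OHT libraries did not overlap. How many of all tested genes were free of overlap in the same way was not counted.

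SF3B1 depletion gave the opposite picture for most of them. In DMSO 8 genes rose and 1, TP53I3, fell, where 72.7% of all genes were called and 36.5% were called higher, and in 4OHT again 8 rose and 1 fell, where 77% were called and 39.4% called higher. The median log2 fold change was 0.52 in DMSO and 0.57 in 4OHT, beside 0.016 and 0.025 over all genes. The DMSO and 4OHT comparisons do not share libraries, while within a treatment the siSF3B1 and siRBM39 comparisons share the same siNT libraries. Each siRNA against SF3B1 taken alone called all 9 genes in both treatments in the same direction.

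**Figure D1:**
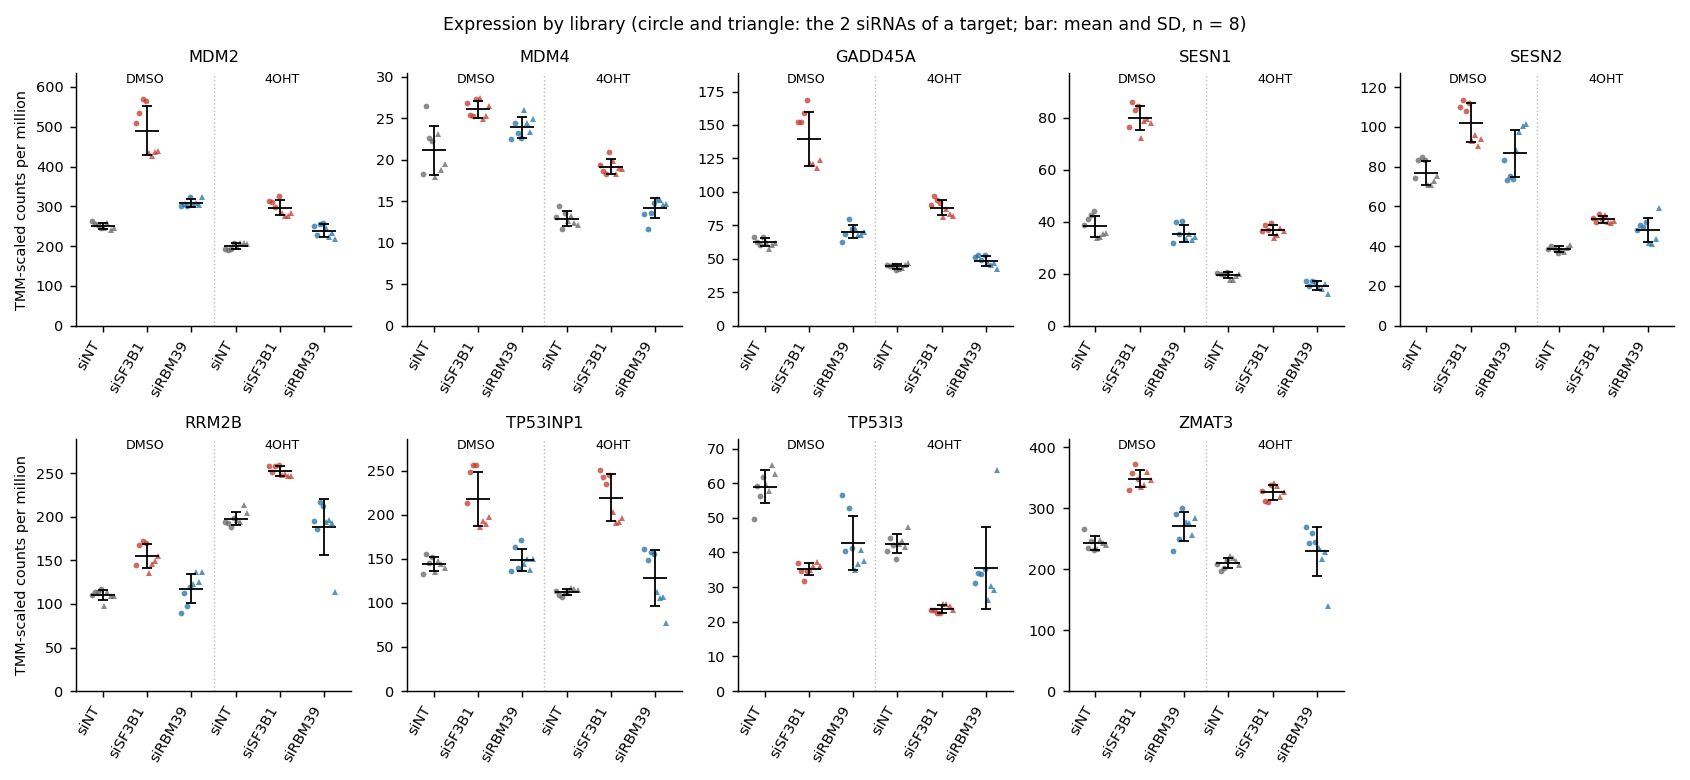
Level of each gene in every library (TMM-scaled CPM on the vertical axis) in the 6 arms, with circles and triangles for the 2 siRNAs of an arm and bars for the mean and SD of 8 libraries. The siSF3B1 libraries of MDM2 lie between 428 and 569 CPM in DMSO, above all siNT libraries (241 to 264), whereas those of TP53I3 lie below theirs.

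MDM2, the ligase that marks p53 for degradation, rose in every arm that lacked a splicing factor. With DMSO it ran from 241 to 264 CPM (median 249.9) in siNT, from 428 to 569 (median 475) in siSF3B1 and from 301 to 325 (median 304) in siRBM39. With 4OHT the ranges were 190.4 to 208 CPM (median 202), 275 to 325 (median 292) and 218 to 257 (median 239). Both depletions lay above siNT in each treatment without overlap, and siSF3B1 lay above siRBM39. RAS lowered MDM2 by a log2 fold change of -0.33 ± 0.050 (SE, n = 8 per arm, edgeR adjusted p = 1.18e-07). siSF3B1 raised it by 0.96 ± 0.050 in DMSO (edgeR adjusted p = 7.02e-22) and by 0.56 ± 0.050 in 4OHT (edgeR adjusted p = 5.23e-14). The rise was smaller after RAS, by -0.40 ± 0.071 on the log2 scale (edgeR adjusted p = 1.1e-05), and this difference was called under each of the 18 alternative settings. siRNA 13 gave the larger rise in both treatments, 1.11 against 0.78 for siRNA 16 in DMSO and 0.64 against 0.45 in 4OHT. In order of level, DMSO siSF3B1 was followed by DMSO siRBM39 and 4OHT siSF3B1, whose means lie within their spread of each other, then by DMSO siNT and 4OHT siRBM39, again within their spread, and last by 4OHT siNT.

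MDM4, the relative of MDM2 that masks the activation domain of p53, was far scarcer. Its length-adjusted level in siNT was 2.30 cRPKM in DMSO and 1.40 in 4OHT, where MDM2 reached 36.3 and 28.8. It ran from 17.9 to 26.4 CPM (median 20.9) in DMSO siNT, from 24.9 to 27.4 (median 25.9) in DMSO siSF3B1 and from 22.4 to 26 (median 23.9) in DMSO siRBM39. In 4OHT the arms ran from 11.7 to 14.4 CPM (median 12.9), from 18.3 to 20.9 (median 18.9) and from 11.7 to 15.3 (median 14.6). siSF3B1 overlapped siNT in DMSO, with 4 of 8 libraries above all siNT libraries, and was clear of it in 4OHT. MDM4 fell with RAS by -0.71 ± 0.059 on the log2 scale (SE, edgeR adjusted p = 4.92e-15). After siSF3B1 it rose by 0.31 ± 0.059 in DMSO (edgeR adjusted p = 1.02e-05) and by 0.57 ± 0.060 in 4OHT (edgeR adjusted p = 7.31e-12). The larger rise in 4OHT, a difference of 0.26 ± 0.083 (edgeR adjusted p = 0.010), was not called without replicate 2 (edgeR adjusted p = 0.0517) or replicate 3 (0.091), with siSF3B1-16 alone (0.0744), with siNT2 alone (0.0711) or without the filter on abundance (0.0661). The 3 DMSO arms and 4OHT siSF3B1 formed an unbroken run of neighbours within their spread, above both other 4OHT arms.

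Across the 12 groups of treatment and siRNA, the mean log2 CPM of MDM2 was most like that of XPR1, a phosphate exporter (Pearson r = 0.981), CNIH4 (0.969) and EFNA5, an ephrin ligand (0.965), and among the 9 genes it was most like GADD45A (0.963). MDM4 was most like SPRY1, a feedback inhibitor of RAS signalling (Pearson r = 0.981), CCNI (0.979) and ITM2B (0.978), and within the group it was most like SESN2 (0.945). MDM2 and MDM4 correlated with r = 0.819 with each other. Among all tested genes ranked by likeness to MDM2, GADD45A was at rank 6 and MDM4 at rank 410. By likeness to MDM4, SESN2 was at rank 71 and MDM2 at rank 913. RRM2B (-0.14 with MDM2 and -0.51 with MDM4) and TP53I3 (-0.27 and 0.05) ran differently. These are descriptions over 12 points that share treatments, siRNAs and 1 scaling.

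GADD45A, a stress-induced protein that arrests growth after DNA damage, had the highest estimate of a rise after siSF3B1 in the group. In DMSO it ran from 57.5 to 66.4 CPM (median 62.3) in siNT, from 118 to 168 (median 138) in siSF3B1 and from 62.8 to 79.8 (median 69.6) in siRBM39. In 4OHT the ranges were 41.6 to 47 CPM (median 44.8), 81.5 to 97.3 (median 88.5) and 42.2 to 52.8 (median 48.2). The siSF3B1 libraries stood clear of the siNT libraries in both treatments, whereas the siRBM39 libraries overlapped them. After siSF3B1 GADD45A rose by 1.16 ± 0.060 (log2, SE, edgeR adjusted p = 5.21e-22) in DMSO and by 0.99 ± 0.061 (edgeR adjusted p = 1.16e-19) in 4OHT. The difference between those changes was -0.17, with an edgeR adjusted p of 0.110. RAS lowered it by -0.49 ± 0.060 (edgeR adjusted p = 5.91e-10). The arms followed each other from DMSO siSF3B1 through 4OHT siSF3B1, DMSO siRBM39 and DMSO siNT beyond their spread, and only the last neighbours, 4OHT siRBM39 and 4OHT siNT, lay within it. Without 4OHT siRBM39-08 replicate 4 these too lay beyond their spread.

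SESN1 and SESN2 encode sestrins, stress proteins that restrain mTORC1, the kinase complex that drives growth. SESN1 ran from 33.8 to 44.3 CPM (median 37.3) in DMSO siNT, from 72.2 to 86.3 (median 79.2) in DMSO siSF3B1 and from 31.8 to 40.5 (median 34.8) in DMSO siRBM39. In 4OHT it ran from 17.7 to 20.6 CPM (median 19.8), from 33.8 to 39.6 (median 36.7) and from 12.1 to 17.1 (median 15.7). SF3B1 and RBM39 depletion thus moved SESN1 apart in 4OHT, the first above and the second below siNT, neither overlapping it. RAS lowered SESN1 by -0.98 ± 0.061 (log2, SE, edgeR adjusted p = 1.36e-19), and siSF3B1 raised it by 1.06 ± 0.060 in DMSO (edgeR adjusted p = 1.3e-20) and 0.92 ± 0.061 in 4OHT (edgeR adjusted p = 2.26e-18). With siRBM39 its log2 fold change was -0.11 in DMSO (edgeR adjusted p = 0.132), and it fell by -0.33 in 4OHT (edgeR adjusted p = 1.08e-05). DMSO siNT, 4OHT siSF3B1 and DMSO siRBM39 were neighbours within their spread, below DMSO siSF3B1 and above both other 4OHT arms.

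SESN2, which also senses leucine, ran from 70.5 to 84.8 CPM (median 75) in DMSO siNT, from 90.5 to 114 (median 102) in DMSO siSF3B1 and from 73.4 to 101 (median 85.9) in DMSO siRBM39. The 4OHT arms ran from 36.7 to 40.8 CPM (median 38.7), from 51.7 to 56.1 (median 53) and from 41 to 59.1 (median 48.8). Here both depletions lay above siNT in 4OHT without overlap. The fall with RAS, close to that of SESN1, was -0.99 ± 0.068 (log2, SE, edgeR adjusted p = 3.83e-18), and the rise after siSF3B1 was 0.41 ± 0.067 in DMSO (edgeR adjusted p = 5.4e-07) and 0.47 ± 0.068 in 4OHT (edgeR adjusted p = 3.21e-08). In level, the 3 DMSO arms lay within their spread of their neighbours and above the 4OHT arms, of which siNT was lowest. 4OHT siSF3B1 and 4OHT siRBM39 lay within their spread of each other with all libraries and beyond it without 4OHT siRBM39-08 replicate 4.

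RRM2B, the p53-inducible small subunit of ribonucleotide reductase that supplies deoxyribonucleotides for repair, was the exception under RAS. It ran from 97.2 to 117 CPM (median 112) in DMSO siNT, from 136 to 172 (median 152) in DMSO siSF3B1 and from 89.8 to 136 (median 121) in DMSO siRBM39. The 4OHT arms ran from 188 to 213 CPM (median 196), from 247 to 259.8 (median 251) and from 113 to 217 (median 195). Every 4OHT siNT library exceeded every DMSO siNT library. RRM2B rose with RAS by 0.84 ± 0.078 (log2, SE, edgeR adjusted p = 1.29e-13), and with siSF3B1 by 0.49 ± 0.078 in DMSO (edgeR adjusted p = 2.92e-07) and 0.35 ± 0.077 in 4OHT (edgeR adjusted p = 7.11e-05). Its level was highest in 4OHT siSF3B1. 4OHT siNT and 4OHT siRBM39 followed within their spread of each other, and DMSO siRBM39 and DMSO siNT came last. DMSO siSF3B1 lay between, below 4OHT siNT beyond their spread but within the wide spread of 4OHT siRBM39 (188 ± 32.1 CPM, SD, n = 8). Without 4OHT siRBM39-08 replicate 4 that arm stood at 199 ± 11 CPM (SD, n = 7), level with 4OHT siNT and beyond the spread of DMSO siSF3B1.

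TP53INP1, a stress protein linked to autophagy and cell death, ran from 133 to 156 CPM (median 145) in DMSO siNT, from 187 to 256 (median 206) in DMSO siSF3B1 and from 136 to 172 (median 147) in DMSO siRBM39. In 4OHT it ran from 107 to 117 CPM (median 112), from 191 to 251 (median 219) and from 76.7 to 161 (median 130.1). The siSF3B1 arms of both treatments shared nearly the same level although siNT was lower in 4OHT. TP53INP1 fell with RAS by -0.36 ± 0.096 (log2, SE, edgeR adjusted p = 0.000797), a call that was lost against siNT2 alone (edgeR adjusted p = 0.0577). It rose with siSF3B1 by 0.59 ± 0.096 in DMSO (edgeR adjusted p = 4.7e-07) and 0.97 ± 0.097 in 4OHT (edgeR adjusted p = 2.13e-12). The larger rise in 4OHT, by 0.37 ± 0.136 (edgeR adjusted p = 0.0269), was not called without replicate 1 (0.134), 2 (0.111) or 3 (0.0757), with siNT1 alone (0.113), with siNT2 alone (0.198) or without the filter on abundance (0.0952). Both siSF3B1 arms lay within their spread of each other at the top, and the other 4 arms lay within the spread of their neighbours below.

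TP53I3, a quinone oxidoreductase-like enzyme also called PIG3, went the other way. In DMSO it ran from 49.6 to 65.3 CPM (median 59.4) in siNT, from 31.7 to 37.2 (median 35.4) in siSF3B1 and from 35 to 56.7 (median 40.6) in siRBM39. The 4OHT arms ran from 38.1 to 47.4 CPM (median 42.4), from 22.5 to 25.2 (median 23.4) and from 26.2 to 63.9 (median 32.5). All siSF3B1 libraries lay below all siNT libraries of the same treatment. RAS lowered TP53I3 by -0.47 ± 0.103 (log2, SE, edgeR adjusted p = 5.93e-05), and siSF3B1 lowered it by -0.74 ± 0.104 in DMSO (edgeR adjusted p = 1.81e-08) and by -0.84 ± 0.105 in 4OHT (edgeR adjusted p = 8.74e-10). It was thus highest in DMSO siNT and lowest in 4OHT siSF3B1, with the 4 arms between them within the spread of their neighbours. Without 4OHT siRBM39-08 replicate 4, 4OHT siRBM39 stood at 31.4 ± 3.17 CPM (SD, n = 7), within its spread of DMSO siSF3B1, and 4OHT siNT then lay above both beyond their spread.

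ZMAT3, a zinc-finger protein that binds RNA and regulates splicing, ran from 231 to 266 CPM (median 241) in DMSO siNT, from 330.3 to 372 (median 347) in DMSO siSF3B1 and from 229 to 301 (median 277) in DMSO siRBM39. In 4OHT it ran from 197 to 221 CPM (median 211), from 310.0 to 342 (median 327) and from 139 to 269.6 (median 239). The siSF3B1 libraries were clear of all siNT libraries. ZMAT3 rose after siSF3B1 by 0.52 ± 0.067 (log2, SE, edgeR adjusted p = 2.84e-09) in DMSO and by 0.64 ± 0.067 (edgeR adjusted p = 9.79e-12) in 4OHT. Its fall with RAS was the smallest of the group, -0.21 ± 0.067 (edgeR adjusted p = 0.00439), and was not called against siNT1 alone (0.0506), siNT2 alone (0.122) or without the filter on abundance (0.0923). Its order resembled that of TP53INP1, with both siSF3B1 arms together at the top and the other 4 within the spread of their neighbours, but without 4OHT siRBM39-08 replicate 4 the 4OHT siRBM39 arm (242 ± 18.2 CPM, SD, n = 7) lay above 4OHT siNT beyond their spread.

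**Figure D2:**
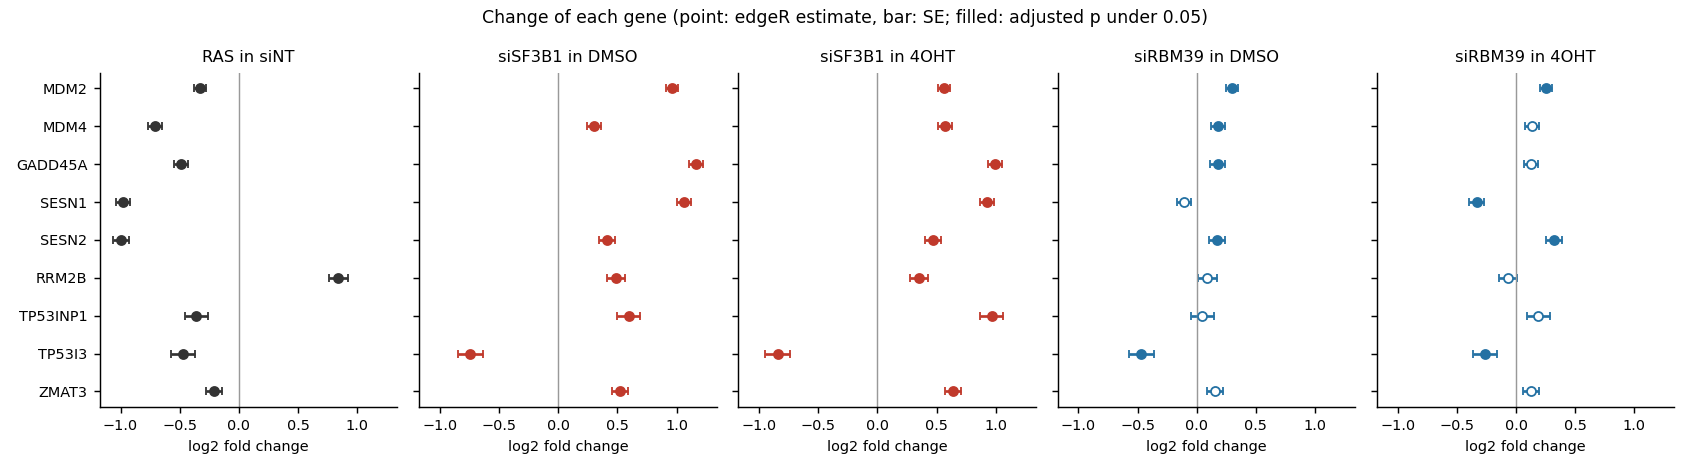
Log2 fold change with its SE for the 9 genes in the RAS, siSF3B1 and siRBM39 comparisons, with filled points for an edgeR adjusted p under 0.05. RRM2B is the only one of the 9 right of 0 for RAS, and TP53I3 the only one left of 0 for siSF3B1 in both treatments.

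RBM39 depletion moved fewer of the genes and by less. In DMSO 5 were called, 4 higher and 1 lower, where 46.1% of all genes were called and 23.9% called higher, and in 4OHT 4 were called, 2 higher and 2 lower, where 56.4% were called and 32.2% called higher. The median log2 fold change of the group was 0.16 and 0.13, beside 0.019 and 0.046 over all genes. MDM2 was called in both treatments with both siRNAs and without overlap with siNT, at 0.30 in DMSO (edgeR adjusted p = 2.97e-06) and 0.25 in 4OHT (edgeR adjusted p = 3.36e-05). MDM4 rose by 0.18 (edgeR adjusted p = 0.0104), GADD45A by 0.18 (0.0141) and SESN2 by 0.17 (0.031) in DMSO, while in 4OHT SESN2 rose by 0.32 (edgeR adjusted p = 9.04e-05). TP53I3 fell by -0.47 in DMSO (edgeR adjusted p = 0.000205) and by -0.26 in 4OHT (0.0281), where 7 of 8 libraries lay below all siNT libraries. The 4OHT call was lost in a fit of the compared arms alone (edgeR adjusted p = 0.115), with siRNA 08 alone (0.215), against siNT1 alone (0.130) or siNT2 alone (0.0682) and without replicate 1 (0.151), 2 (0.213) or 3 (0.169). RRM2B, TP53INP1 and ZMAT3 were called in neither treatment, with log2 fold changes between -0.07 and 0.19. ZMAT3 in DMSO was close to the threshold (edgeR adjusted p = 0.0537). It was called in several settings, among them DESeq2 (adjusted p = 0.0377), siRNA 06 alone (edgeR adjusted p = 0.0163) and without replicate 1 (0.0400). RRM2B in DMSO stood at -0.079 with siRNA 06 alone and rose by 0.24 with siRNA 08 alone (edgeR adjusted p = 0.016). The DMSO count rested on few libraries, since it was 2 without replicate 3, 3 without replicate 2 and 3 against siNT1 alone, where MDM4, GADD45A or SESN2 lost their calls.

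The library that stood apart belongs to this comparison. In 4OHT siRBM39-08 replicate 4, RRM2B was at 113 CPM where the other 7 siRBM39 libraries began at 187, ZMAT3 at 139 where they began at 216, TP53INP1 at 76.7, and TP53I3 at 63.9 where they reached at most 35.1. Without it 7 genes were called for siRBM39 in 4OHT, and the share of all genes called in that fit is not given here. GADD45A (0.15, edgeR adjusted p = 0.0267), TP53INP1 (0.27, 0.00493) and ZMAT3 (0.20, 9.06e-05) then passed as higher, TP53I3 fell by -0.44 in place of -0.26, and RRM2B moved from -0.07 to 0.01. MDM2 (0.27), SESN1 (-0.29) and SESN2 (0.27) stayed called, and MDM4 (0.12) did not pass.

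The siRNAs against RBM39 also differed. In 4OHT TP53INP1 was at 148, 158, 156 and 161 CPM with siRBM39-06 and at 76.7, 106, 107 and 112 CPM with siRBM39-08, the first above all siNT libraries (107 to 117 CPM) and the second reaching from below them into their range. Against siNT, siRNA 06 raised it by 0.47 (log2, edgeR adjusted p = 5.94e-10) and siRNA 08 lowered it by -0.18 (edgeR adjusted p = 0.00713). The fall with siRNA 08 rests on replicate 4, without which it was -0.084 (edgeR adjusted p = 0.052). ZMAT3 in 4OHT rose by 0.28 with siRNA 06 (edgeR adjusted p = 1.01e-05) and stood at -0.06 with siRNA 08, or 0.077 without replicate 4 (edgeR adjusted p = 0.070). SESN2 in DMSO stood at -0.01 with siRNA 06 and rose by 0.33 with siRNA 08 (edgeR adjusted p = 0.000274). The difference between the siRNAs was not tested itself.

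Whether RAS altered the response to RBM39 depletion was asked with the same interaction term. None of the 9 genes was called by edgeR or by DESeq2 or limma-voom, where 14.1% of all genes were called, and 1, SESN1, had an unadjusted p under 0.05 (difference -0.22, edgeR adjusted p = 0.0739). For SF3B1 depletion 3 of the 9 were called (MDM2, MDM4 and TP53INP1), where 37.8% of all genes were called. The direct comparison of siSF3B1 with siRBM39 called 8 genes in DMSO, where 67.7% were called, and 9 in 4OHT, where 71.4% were called. SESN1 differed most, by 1.17 in DMSO and 1.26 in 4OHT (log2), ahead of GADD45A with 0.99 and 0.87. MDM4 in DMSO, at 0.13, did not pass (edgeR adjusted p = 0.0526). It was called in several settings, among them limma-voom (adjusted p = 0.0423), 1 group per siRNA (edgeR adjusted p = 0.0293) and without replicate 2 (0.0195). SESN2 in 4OHT, at 0.15 (edgeR adjusted p = 0.0434), lost its call in 10 settings, among them DESeq2 (adjusted p = 0.055) and the fits without replicate 1 (edgeR adjusted p = 0.365), 2 (0.114) or 3 (0.151). Without the library that stood apart all 9 were still called in 4OHT.

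The rest of the pathway moved less evenly. Of 15 regulators of p53, all tested, 3 rose and 6 fell with RAS, 4 rose and 7 fell with siSF3B1 in DMSO, and 6 rose and 7 fell with siSF3B1 in 4OHT. Over all genes 78.1%, 72.7% and 77% were called in these comparisons. The regulators' median change with siSF3B1 was -0.14 (log2) in DMSO and -0.00095 in 4OHT, below that of the 9 genes. The extremes after siSF3B1 were RCHY1, another ligase for p53 (0.58), and TOPORS (-1.42) in DMSO, and SIAH1, a ubiquitin ligase (0.64), and ATR, the replication stress kinase (-1.03), in 4OHT. With siRBM39 4 rose and 6 fell in DMSO and 8 rose and 4 fell in 4OHT, where 46.1% and 56.4% of all genes were called, with ATR falling most in both (-1.15 and -1.63) and the checkpoint kinase CHEK2 rising most (0.35 and 0.55).

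A second list held 35 other p53 targets and relatives of the 9 genes, of which 31 could be tested. With RAS 12 rose and 15 fell, where 78.1% of all genes were called, from GDF15, a secreted stress cytokine (2.98), to SESN3, the third sestrin (-2.12). siSF3B1 raised 21 and lowered 6 in DMSO with a median of 0.41, where 36.5% of all genes were called higher, and raised 17 and lowered 6 in 4OHT with a median of 0.17, where 39.4% were called higher. GDF15 rose most in both (1.85 and 1.47), while SESN3 (-0.62) and the repair factor DDB2 (-0.64) fell most. siRBM39 raised 14 and lowered 8 in DMSO (median 0.18) and raised 12 and lowered 9 in 4OHT (median 0.11), where 23.9% and 32.2% of all genes were called higher. The change after siSF3B1 was higher in 4OHT for 3 of the 31 and lower for 11, where 37.8% of all genes were called in either direction, from the kinase PLK2 (0.81) to the lesion-bypass polymerase POLH (-0.80).

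**Figure D3:**
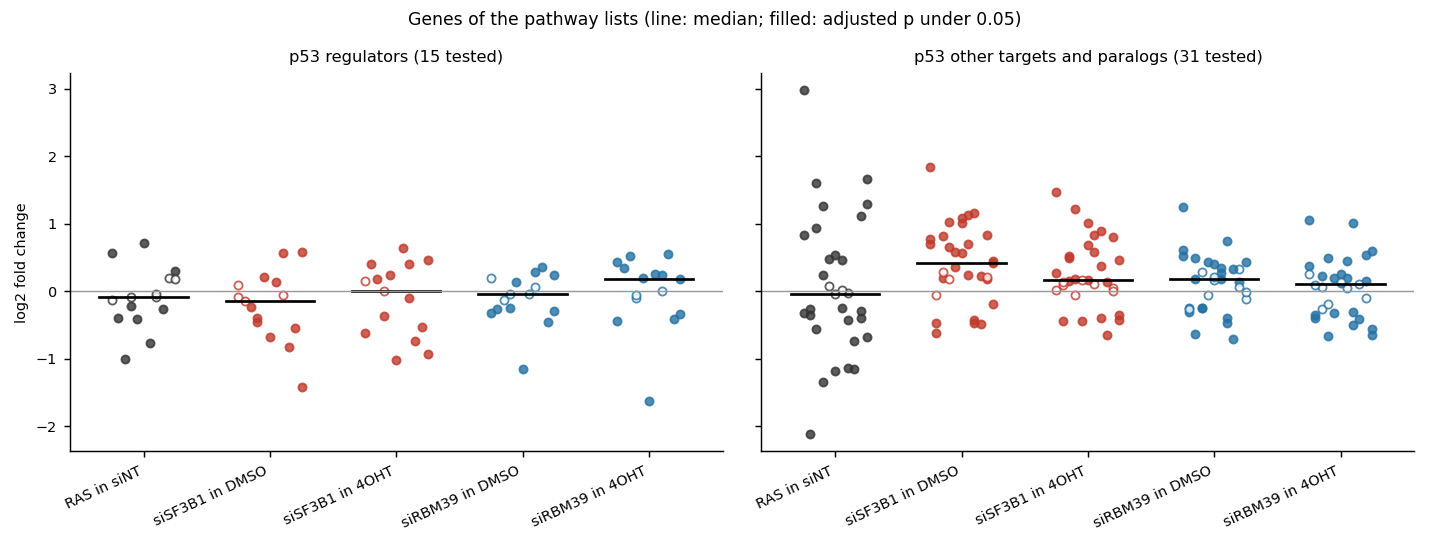
Log2 fold change of each of the 15 regulators and the 31 other targets by comparison, with a bar at each list's median. After siSF3B1 the medians of the other targets are 0.41 in DMSO and 0.17 in 4OHT, and those of the regulators are -0.14 and -0.00095.

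Splicing of these genes was read as percent spliced in (PSI), the share of junction reads that include an exon or retain an intron. Of the 145 events, 13 (10 exons and 3 introns) had enough reads and enough range to be tested, among 12921 events in all. Range was taken over all 48 libraries, siSF3B1 included, so an exon could enter through its change after siSF3B1. All tested events met the same limits, and 12 exons and 11 introns of the group had enough reads but too little range. An event was called at a limma adjusted p under 0.05 with a PSI difference of 5 points or more. siSF3B1 changed 7 of the 13 in DMSO and 7 in 4OHT, all of them exons with lower PSI, where 20.4% and 23.8% of all events were called and 25.7% and 29% of all exons were called with lower PSI. RAS called 0 (0.913% of all events) and siRBM39 0 in DMSO and 0 in 4OHT (5.65% and 6.34%). The interaction terms called 0 of the 13 for siSF3B1 (0.348% of all events) and 0 for siRBM39 (0.0232%). Exact permutation tests over libraries, unadjusted, passed 0.05 for all 14 of these siSF3B1 calls. The direct comparison of siSF3B1 with siRBM39 called 7 in each treatment, where 17.8% and 20.5% of all events were called. No tested event of MDM4, SESN2 or TP53INP1 was available at this depth.

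MDM2 lost inclusion of 5 of its 6 tested exons after siSF3B1. Another 3 MDM2 exons had enough reads but too little PSI range over all libraries, and were not tested. Exon 4, 134 bases, ran from 91.9 to 100% PSI (median 97.2) in DMSO siNT and from 75.6 to 82.2% (median 79.0) in DMSO siSF3B1, and from 93.1 to 98.4% (median 96.7) and 65.1 to 81.0% (median 75.1) in the same arms of 4OHT. Its PSI difference was -17.7 points in DMSO (limma adjusted p = 4.96e-10) and -22 points in 4OHT (limma adjusted p = 1.58e-10), the largest of the gene. Exon 8, 161 bases, fell from 98.4 ± 2.48% to 83.1 ± 5.31% (SD, n = 8, exact permutation p = 0.000155) in DMSO and from 99.8% to 84.3 ± 8.14% in 4OHT. In both exons every siSF3B1 library lay below every siNT library of its treatment.

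Exon 3, 75 bases, ran from 98.5 to 100% (median 100) in DMSO siNT and from 79.1 to 92.9% (median 86.6) in DMSO siSF3B1, a PSI difference of -14.2 points (limma adjusted p = 3.85e-12). The difference was -10.8 points in 4OHT (limma adjusted p = 5.94e-10). Exon 7, 97 bases, dropped to 88.5 ± 4.81% and 85.6 ± 5.75% (SD, n = 8) with siSF3B1, differences of -11.1 points (limma adjusted p = 2.74e-12) and -14.1 points (limma adjusted p = 4.71e-14). These exons too showed no overlap between siNT and siSF3B1, and their exact permutation p was 0.000155, the smallest that the splits of 8 against 8 libraries allow.

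Exons 6 and 9 moved less. Exon 6, 68 bases, fell by 5.11 points in DMSO (limma adjusted p = 0.00025, exact permutation p = 0.0471) and by 5.79 points in 4OHT (limma adjusted p = 0.00121, exact permutation p = 0.0126), with overlapping libraries. The DMSO difference came below 5 points, and so lost its call, with siNT1 alone (-3.13) and without replicate 2 (-4.37), 3 (-4.71) or 4 (-4.38), and the 4OHT difference with siSF3B1-16 alone (-4.36) and without replicate 1 (-4.70). Exon 9, 156 bases, differed by -4.49 points in DMSO and -4.70 points in 4OHT (limma adjusted p = 0.00013 and 0.000185) and stayed short of 5 points. Exons 6 and 7 share the junction between exons 5 and 8 as evidence of skipping, so their values are not independent. The siRBM39 arms kept all 6 tested MDM2 exons within -2.95 to 0.62 points of siNT.

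MDM2 exon 10 and the MDM4 exons had too few reads in single libraries, and their reads were summed over the 8 libraries of an arm, with exact 95% binomial intervals that cover counting error only and with no test. MDM2 exon 10, 78 bases, was included in 514 of 516 reads in DMSO siNT (99.6%, interval 98.6 to 100) and in 751 of 885 in DMSO siSF3B1 (84.9%, 82.3 to 87.2). In 4OHT its share was 99.6% with siNT and 81.7% (78.3 to 84.8) with siSF3B1. It stayed at 98.4% and 99.2% with siRBM39. Both siRNAs against SF3B1 showed it, with 79.5% and 90.4% in DMSO and 76.2% and 86.8% in 4OHT for siRNA 13 and 16. A rarely used MDM2 exon of 71 bases rose in DMSO from 8.89% to 23.6% of reads with siSF3B1, but was at 8.13% and 9.18% in 4OHT. The MDM2 exons of 181, 88 and 85 bases were also short of reads and are not described.

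MDM4 exon 6 gave the largest contrast between arms. Its summed reads numbered 77 with and 36 without the exon in DMSO siNT (68.1%, interval 58.7 to 76.6), and 5 with and 104 without it in DMSO siSF3B1 (4.59%, 1.51 to 10.4). In 4OHT the shares were 47.9% (36.1 to 60) from 73 reads with siNT and 6.85% (2.26 to 15.3) from 73 reads with siSF3B1. Nearly all reads over this exon in SF3B1-depleted cells thus lacked the 68 bases printed above. RBM39 depletion lay between, at 50% (40.3 to 59.7) in DMSO and 20.5% (12.2 to 31.2) in 4OHT, and only the 4OHT interval was clear of that of siNT. Both siRNAs against SF3B1 gave a low share, with 5.77% and 3.51% in DMSO and 7.14% and 6.67% in 4OHT for siRNA 13 and 16, beside 59.1% for siNT1 and 41.2% for siNT2 in 4OHT. In 4OHT the share was 22.2% with siRBM39-06 and 16.7% with siRBM39-08.

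Single libraries held 2 to 23 reads over this exon. Their PSI ran from 47.6 to 80.8% (median 70.7) in DMSO siNT, from 0 to 13.1% (median 3.75) in DMSO siSF3B1 and from 16.7 to 76.3% (median 43.7) in DMSO siRBM39. The 4OHT arms ran from 15.4 to 100% (median 55.2), from 0 to 20% (median 6.02) and from 0 to 55.1% (median 17.5). The siSF3B1 libraries lay below all siNT libraries in DMSO but reached into their range in 4OHT. The MDM4 gene as a whole meanwhile rose after siSF3B1, so its gene count and its exon 6 inclusion went in opposite directions. 3 annotated MDM4 transcripts skip exon 6, 2 of them coding. The MDM4 exons of 56 and 100 bases were included in 97.6 to 100% of their summed reads in every arm.

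**Figure D4:**
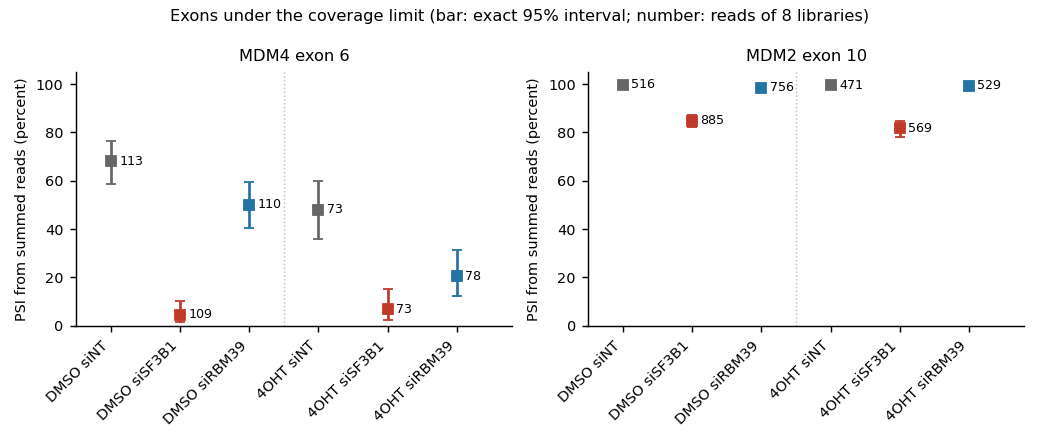
Inclusion of MDM4 exon 6 and MDM2 exon 10 from reads summed over the 8 libraries of each arm (percent, with exact 95% intervals) and the number of reads behind each point. MDM4 exon 6 drops from 68.1% in DMSO siNT to 4.59% in DMSO siSF3B1, and MDM2 exon 10 from 99.6% to 84.9%.

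GADD45A exon 2, printed above, ran from 95.6 to 100% (median 97.9) in DMSO siNT and from 84.8 to 93.2% (median 88.0) in DMSO siSF3B1. In 4OHT it ran from 91.7 to 100% (median 96.9) and from 68.4 to 83.1% (median 77.1). No siSF3B1 library overlapped siNT in either treatment. The PSI difference was -9.13 points in DMSO (limma adjusted p = 2.4e-07) and -19.1 points in 4OHT (limma adjusted p = 9.97e-11). Their difference of -9.97 points was not called on the logit scale used (limma adjusted p = 0.56) but was called on the PSI scale (limma adjusted p = 0.00117). With siRBM39 the exon differed from siNT by -3.05 and -3.57 points, under the 5-point limit. Over 3 introns of the group the authors' balance score was too low, so they were not among the tested events and are given as values with exact tests. Retention of the GADD45A intron of 223 bases stood at 2.42% in DMSO siNT and 18.4% in DMSO siSF3B1, and at 3.15% and 23.5% in 4OHT, with no overlap (exact permutation p = 0.000155, n = 8 per arm). The GADD45A intron of 486 bases stood at 7.46% and 12.1% in DMSO (exact permutation p = 0.0121, n = 8) and at 8.22% and 13.1% in 4OHT (exact permutation p = 0.000622, n = 8), with overlapping libraries. In TP53I3, the gene that fell, an intron of 1178 bases stood at 3.23% in siNT, 9.41% in siSF3B1 (no overlap, exact permutation p = 0.000155, n = 8) and 7.22% in siRBM39 (exact permutation p = 0.000622, n = 8) in DMSO. In 4OHT the same arms stood at 1.70%, 7.69% (exact permutation p = 0.00264, n = 8) and 4.60% (exact permutation p = 0.0193, n = 8), with overlap.

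The ZMAT3 exon is used in a minority of transcripts. It ran from 16.4 to 32.4% (median 25.9) in DMSO siNT and from 4.43 to 10.9% (median 6.6) in DMSO siSF3B1, and from 17.2 to 39.5% (median 22) and 5.17 to 16.5% (median 6.58) in 4OHT. The differences were -17.6 and -16.4 points without overlap (exact permutation p = 0.000155 in each, n = 8 per arm). With siRBM39 they were -5.96 and -8.47 points, with overlapping libraries, and were not called by limma (limma adjusted p = 0.286 and 0.0733). The exact permutation p, unadjusted, was 0.0382 in DMSO and 0.0219 in 4OHT for siRBM39. Beside MDM2 exon 9, the remaining tested events, 1 exon and 1 intron in TP53I3, 1 exon in RRM2B, 1 intron in SESN1 and 1 intron in MDM2, were called in none of the comparisons.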

How the data were processed

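RNA-seq of 48 libraries was analysed from tables the authors deposited. Reads were processed by the authors with vast-tools against VAST-DB for hg19, and edgeR, limma and hg19 are the names in the submitters' processing notes. The deposited gene table holds raw counts and cRPKM (RPKM corrected for mappable length) per library, and the deposited inclusion table holds PSI as a percent with read numbers and quality scores. A filtered CPM table was not used. The labels number 4 replicates per siRNA where the methods give 3, and all 4 were used. No source says whether they were separate cultures, so p-values measure only the spread between these libraries. In each of 72 pairs of libraries of 1 group the counts differed by more than sampling noise (chi-square per degree of freedom at least 2.00).

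Genes with 10000 or more counts in total (9991 of 19509, 51.2%) were fitted with edgeR 4.0.16 in R 4.3.3 by the quasi-likelihood test with TMM scaling and 6 arm means, and Benjamini-Hochberg adjusted p under 0.05 was called. The RAS comparison is 4OHT against DMSO in siNT, the siRNA comparisons are against siNT of the same treatment, and interaction terms compare those changes between treatments. Events (7673 exons and 5248 introns) had a coverage score of VLOW or better in every library and a PSI range of 5 points or more, and introns also had to pass the balance score at 0.05. They were fitted with limma 3.58.1 on the logit of 0.01 + 0.98 × PSI/100. For single values, exact two-sided permutation tests over 8 against 8 libraries were used. Both fits were tested on simulated data. PSI values lay within 0.1 points of included over all reads in 99.55% of cases.

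Although hg19 is named, event coordinates lie in GRCh38 genes for 24 of 24 MDM2 events and for 20 of 39 MDM4 events. Of the MDM4 events, 6 lie in the GRCh37 gene. Exons were therefore matched by exon and intron lengths to GENCODE v44 on GRCh37, and sequences and coordinates are of that build. The members and lists were chosen with earlier results of these data known. One entry of the regulator list is not reported here. Named were the 9 genes and the targeted factors, from each list the called gene that rose and the one that fell most, the 3 genes most like MDM2 or MDM4, and each called event, with those of the 9 genes near the 5-point limit, failing the balance score or short of reads that bear on the results. RRM2B and TP53INP1 are reported without sequences. Alternatives tried were DESeq2 1.42.0, limma-voom, other size factors and filters, 1 group per siRNA, single siRNAs, a replicate block, fits of the compared arms alone, single control siRNAs, another event scale and coverage limit, and left-out replicates. Leaving out 1 library from the fit of siRNAs 16 and 08 alone was chosen after seeing the data.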

Additional observations from a re-analysis of the deposited data

Results flagged for a closer look

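In groups of 8 libraries, a gap test (Dixon's, 95% level, applied to 54 groups, of which chance flags about 1 in 20) set 5 values apart. RRM2B was at 97.2 CPM in DMSO siNT2 replicate 1, where the next library was at 109. TP53I3 was at 31.7 CPM in DMSO siSF3B1-13 replicate 3, where the next was at 34.7. The other 3 values came from 1 library, 4OHT siRBM39-08 replicate 4, with RRM2B at 113 CPM (next 187), ZMAT3 at 139 CPM (next 216) and TP53I3 at 63.9 CPM (next 35.1). This library had 34283723 counts and the TMM factor 0.927.

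The change after siSF3B1 differed between 4OHT and DMSO for 3 genes by edgeR's interaction test, with a difference of -0.40 on the log2 scale for MDM2 (edgeR adjusted p = 1.1e-05), 0.26 for MDM4 (edgeR adjusted p = 0.010) and 0.37 for TP53INP1 (edgeR adjusted p = 0.0269).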

How the results depend on the processing

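Of 1188 alternative values of log2 fold changes of the 9 genes, 1086 kept their direction and side of the threshold, 51 lost a call, 40 gained one and 11 changed sign. Of 660 PSI differences 630 kept both, 20 lost and 10 gained a call, and of 341 counts 314 stayed within 1.5 times. The count of genes was 9 for siSF3B1 in each treatment under every alternative.

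For siRBM39 in DMSO (5 genes) the count was 3 against siNT1 alone and 2 to 5 with a replicate left out. For siRBM39 in 4OHT (4 genes) it was 7 with 1 group per siRNA, 7 with siRNA 06 alone and 7 without 4OHT siRBM39-08 replicate 4, and 3 to 6 with a replicate left out. For the siSF3B1 interaction (3 genes) it was 5 in a fit of the compared arms alone, 5 with siRNA 13 alone, 1 with siNT2 alone and 1 to 3 with a replicate left out. For the siRBM39 interaction (0 genes) it was 1 with 1 group per siRNA, 2 with siRNA 06 alone and 4 with siRNA 08 alone. siSF3B1 against siRBM39 in DMSO (8 genes) gave 5 with siRNAs 16 and 08 alone. Events called numbered 4 with LOW coverage required, which leaves 8 to test, for siSF3B1 in DMSO, in 4OHT and against siRBM39 in both, and 6 to 8 with a replicate left out. For siRBM39 they numbered 3 in DMSO and 1 in 4OHT with no minimum difference, 1 in 4OHT on the PSI scale and 2 in 4OHT against siNT1 alone, and for the siSF3B1 interaction 1 on the PSI scale. The shares of all genes and events called under these alternatives are not given here. The causes were not tested, save that fewer events enter with LOW coverage.

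Changes of sign were confined, among the settings run, to values near 0 or to 1 siRNA of a pair. For siRBM39 in DMSO, SESN1 was 0.022 against siNT2 alone, and SESN2 was -0.011 and RRM2B -0.079 with siRNA 06 alone. For siRBM39 in 4OHT, RRM2B was 0.038 with siRNA 06 alone, 0.010 without 4OHT siRBM39-08 replicate 4 and -0.119 to 0.0034 with a replicate left out, ZMAT3 was -0.060 and TP53INP1 -0.18 (called, edgeR adjusted p = 0.00713) with siRNA 08 alone, and TP53INP1 -0.084 with siRNA 08 alone and replicate 4 left out, an alternative chosen after the data were seen. Against siRBM39 in DMSO, SESN2 was -0.061 with siRNAs 16 and 08 alone, with or without that library. Under this added setting 8 genes were called for siRBM39 in DMSO, 5 for the siSF3B1 interaction and 5 for the siRBM39 interaction. The shares of all genes called under it are not given here.

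Deviations of same-numbered libraries had no common direction, with a median correlation of 0.0116 beside 0.00088 for different numbers. Single same-numbered pairs ran from -0.906 to 0.811, so some deviated strongly together or in opposition. Of 48 libraries, 15 correlated best with their own number. A replicate block gave 9 genes for RAS, 9 and 9 for siSF3B1 and 5 and 4 for siRBM39 in DMSO and 4OHT, 3 and 0 for the interactions, and 7 events for siSF3B1 in each treatment, as without the block.

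Depth limited MDM4 splicing most, with 2 to 23 reads per library over exon 6, and intervals on summed reads leave out the spread between libraries.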
